A study of Mus musculus with 2 samples.

Results

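The collagen genes of the mouse were described in open-chromatin maps of a hindlimb muscle, the gastrocnemius. They were taken as every protein-coding gene whose symbol is built as Col, a chain number, the letter a and a second number, such as Col1a1. This gave 44 genes of 21851 protein-coding genes in GENCODE release 21 of the mouse annotation on mm10. By the form of the finished protein, 11 were fibrillar collagens, 9 were network-forming collagens and 24 were other collagens, among them the beaded-filament, fibril-associated, transmembrane and multiplexin types.

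Collagens are triple-helical proteins of the extracellular matrix. Fibrillar collagens such as types I, III and V form the fibrils that give tendon and muscle connective tissue their tensile strength, type IV forms the sheet of the basement membrane around each muscle fibre, and type VI forms beaded filaments that tie that membrane to the surrounding matrix. In skeletal muscle most of this matrix is laid down by fibroblasts and related stromal cells rather than by the fibres themselves, and several type IV genes lie in pairs that are transcribed in opposite directions from adjoining start sites.

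The tissue came from 2 male B6CASTF1/J mice aged 36 days, which are hybrids of the C57BL/6J and CAST/EiJ strains. Each animal gave 1 DNase-seq library, called replicate 1 and replicate 2 here, and the animals formed a single group with no treatment and no second tissue. DNase-seq cuts accessible DNA in nuclei with DNase I, and the authors deposited for each library a shorter and a longer list of peaks, a list of footprints (short stretches protected from cutting within open DNA) and a q-value for each run of bases. With nuclei from whole tissue, fewer nuclei of one cell type and weaker opening in each nucleus cannot be told apart, and with 2 animals in 1 group no test between conditions exists, so values are given for each library and set beside all protein-coding genes.

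A gene was called open at its promoter where a peak of the shorter list lay within 500 bp of an annotated start site. Its value is the authors' signal, the height of the highest such peak, whose scaling between libraries is not stated. Each value was therefore also ranked within its library as the percent of peaks of the shorter list that were no higher. The shorter lists held 50760 and 49230 peaks, the footprint lists 155037 and 234134 footprints, and the sequencing depth is unknown. The labelled tissue showed in the muscle fibre genes Ckm, Acta1, Des, Ttn, Myod1 and Mef2c, of which 6 of 6 were open in both libraries. Of the cells that make matrix, the fibro-adipogenic progenitor markers were open in both libraries for 2 of 6 genes (Pdgfra and Dcn) and the tenocyte markers for 2 of 6 (Scx and Mkx). Of the other cells, 3 of 6 endothelial, 3 of 5 smooth muscle and pericyte, 2 of 4 Schwann cell and 0 of 4 macrophage markers were open in both.

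The promoter sequences shown are those of the divergent type IV genes, of the promoters with the highest ranks and of the type I genes, because the results below turn on them. They were read from the GRCm38.p6 (mm10) reference genome and are printed 5′ to 3′ in lower case. Capitals mark bases that lay in footprints of both libraries. They are footprint sites and stretches outside annotated untranslated regions, on the strand of the gene except for the type IV pairs, which are on the plus strand.
Col4a1 and Col4a2 shared start, first site, chr8:11312778-11312797: ttgttgGCGCTGCCCcctcc
Col4a1 and Col4a2 shared start, second site, chr8:11312800-11312819: tcggcagTGCGCgggcggcg
Col4a3 and Col4a4 intervening stretch, chr1:82586850-82586975: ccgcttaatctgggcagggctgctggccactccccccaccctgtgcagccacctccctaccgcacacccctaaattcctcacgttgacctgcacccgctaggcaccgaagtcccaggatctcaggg
Col16a1, chr4:130047741-130047839: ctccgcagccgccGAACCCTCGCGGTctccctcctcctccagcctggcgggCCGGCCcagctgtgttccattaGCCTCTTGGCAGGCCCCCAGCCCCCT
Col6a2, chr10:76623433-76623462: CGCGGGGCCGCAGCGCCCCCCAGCGGTCGA
Col1a1, chr11:94936101-94936223: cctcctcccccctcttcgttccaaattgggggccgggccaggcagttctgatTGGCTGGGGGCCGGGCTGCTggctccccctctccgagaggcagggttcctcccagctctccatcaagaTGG
Col1a1 start site, chr11:94936217-94936239: aagaTGGTATAAAAGGGGCCCAG
Col1a2, chr6:4505593-4505612: ccgggCCCCTAGccctagcc

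The Col1a1 stretch holds the letters CCAAT on the minus strand (attgg as printed) at 2 places, and the second, chr11:94936151-94936155, reached into a footprint of both libraries while the first did not. The letters TATAAA at chr11:94936224-94936229 begin at the annotated Col1a1 start site and lay inside a shared footprint. In the stretch between the Col4a3 and Col4a4 start sites no base is in capitals, since no footprint there was shared.

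Of the 44 collagen genes, 23 (52.3%) were open at the promoter in both libraries, beside 54.2% of all protein-coding genes. In the shorter lists the family as a whole thus stood near the background. By class, 9 of 11 fibrillar genes, 3 of 9 network genes and 11 of 24 others were open. No other protein-coding gene had a start site within 500 bp of these promoter peaks, apart from the partner in the type IV pairs. Another 2 genes were open in replicate 1 alone (1.59% of all genes) and 5 in replicate 2 alone (2.88%), 2 had peaks in the longer lists only, and 12 had none in any list (35.8%). A peak covered a start site in both libraries for 14 of the 44 (39.9% of all genes). In the longer lists 31 collagen genes (70.5%) were open in both libraries, beside 59% of all genes.

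**Figure D1:**
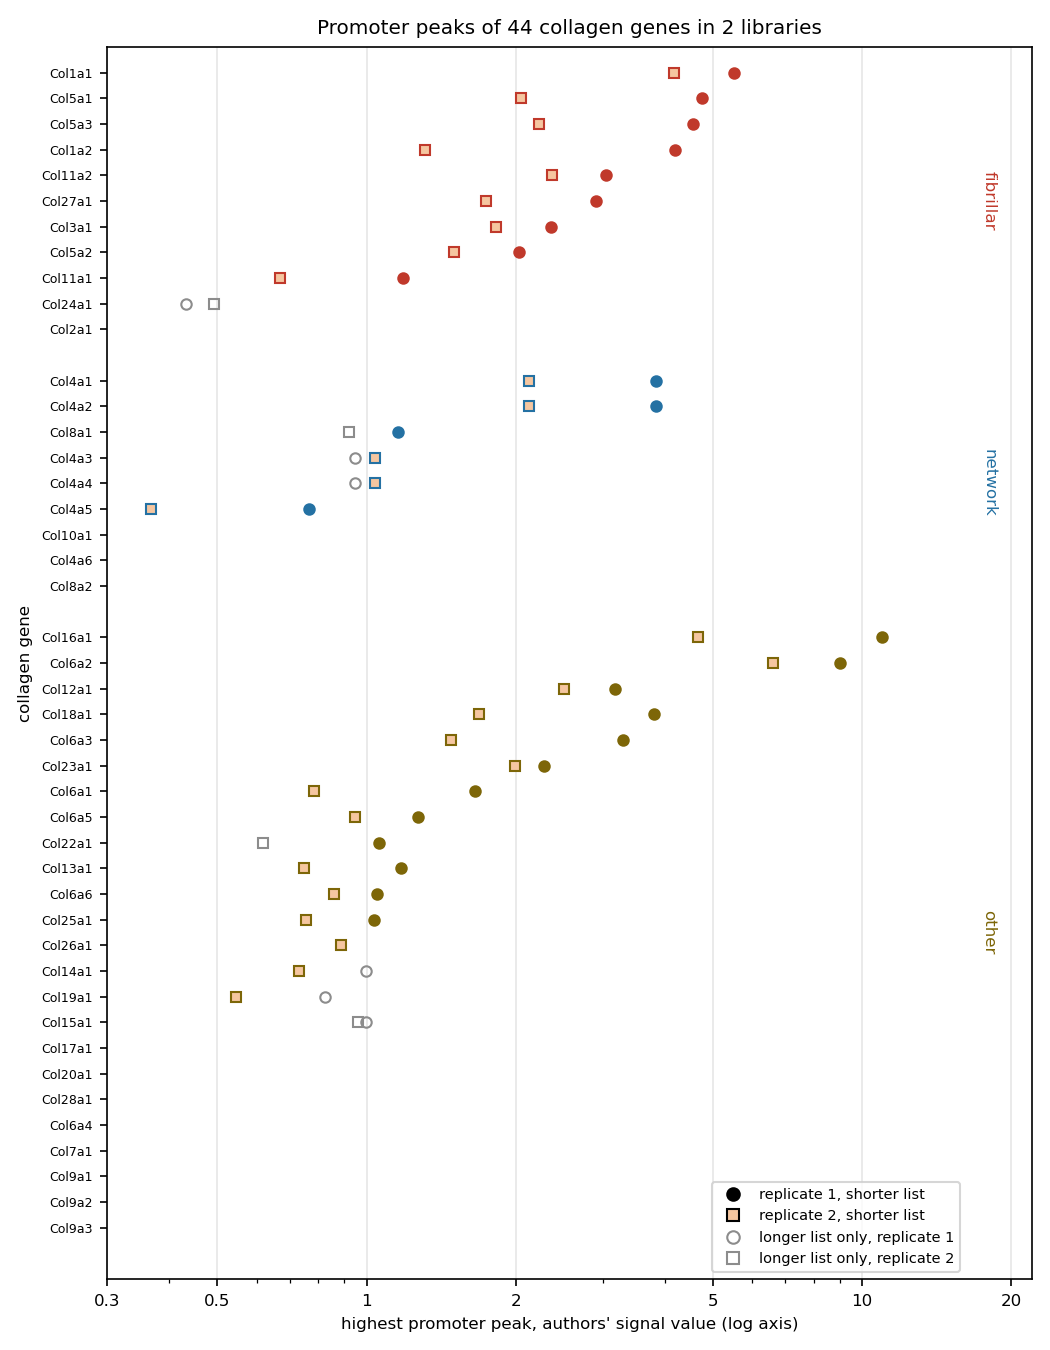
Height of the highest promoter peak (authors' signal, log axis) of each of the 44 collagen genes, grouped by class; circles are replicate 1 and squares replicate 2, filled for the shorter list and hollow grey where a peak was only in the longer list. Col16a1 and Col6a2 reach the highest values, replicate 1 lies above replicate 2 for each of the 23 genes open in both, and the rows without a symbol are the 12 genes with no peak.

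Among the fibrillar genes, the type I genes Col1a1 and Col1a2, which encode both chains of the main fibril collagen of tendon and bone, were open in both animals. Col1a1 reached 5.51 in replicate 1 and 4.17 in replicate 2, at chr11:94936101-94936320 and chr11:94936101-94936360, which ranked it at percentiles 86.1 and 87.1. Col1a2 reached 4.19 and 1.31, percentiles 80.9 and 49.7. Both genes ranked high in replicate 1, and in replicate 2 Col1a2 lay well below Col1a1.

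Col3a1, whose product forms thin fibrils with type I in muscle connective tissue, had lower peaks of 2.35 and 1.83, with near-equal percentiles of 63.7 and 64.0. Its peaks lay just downstream of the start site at chr1:45311541-45311720 and chr1:45311541-45311740 and did not cover it. The type V genes encode chains that are built into type I fibrils and limit their width. Col5a1 reached 4.76 and 2.05, Col5a3 reached 4.55 and 2.23, and Col5a2 reached 2.03 and 1.50. Col5a1 and Col5a3 were close to each other in both libraries, and Col5a2 was the lowest of the type V genes in both.

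The type XI chains, known best from cartilage, were also open. Col11a2 had values of 3.05 and 2.37, but its peaks were centred 588 and 576 bp downstream of the nearest start site, and they fell within 500 bp of only the last of its 3 start sites. Col11a1 had values of 1.18 and 0.670, the lowest of the fibrillar genes open in both. Col27a1, a fibrillar collagen of cartilage and other tissues, reached 2.90 and 1.74. Col24a1 had peaks in the longer lists only (0.431 and 0.493), and Col2a1, the main collagen of cartilage, had no promoter peak in any list. Of the cartilage markers, 2 of 6 were open in both libraries (Sox9 and Matn3), and Acan, Matn1, Hapln1 and Comp had no shorter-list peak in either. The part of cartilage cells in the type XI peaks was not tested.

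The network genes divided by their pairs. Col4a1 and Col4a2 encode the chains found in nearly all basement membranes. Their annotated start sites on chromosome 8 overlap, with the plus-strand start 21 bp to the left of the minus-strand start, and 1 peak served both genes with 3.83 in replicate 1 (chr8:11312701-11312920) and 2.13 in replicate 2 (chr8:11312499-11312989). Pairs of this kind were mostly open in this tissue: of 1115 head-to-head pairs of protein-coding genes with starts at most 1 kb apart, 90.2% were open for both genes in both libraries. The median peak shared by such a pair was 7.76 in replicate 1 and 5.16 in replicate 2, above the Col4a1 and Col4a2 peak in both.

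Col4a3 and Col4a4 encode chains of the kidney glomerular basement membrane, and their start sites lie 127 bp apart on chromosome 1. They shared a peak of 1.04 in replicate 2 (chr1:82586561-82587220) and had none in the shorter list of replicate 1. The longer list of replicate 1 held a peak of 0.949 at chr1:82587061-82587282, which lay downstream of the Col4a3 start site. Of the 2 collagen pairs within 1 kb, 1 was therefore open in both libraries, and both were in the longer lists.

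Col4a5 and Col4a6, the X-linked chains, have start sites 1309 bp apart, beyond the 1 kb limit for a pair. Col4a5 had the weakest promoter peak of the 23, with 0.764 and 0.368 (percentiles 6.50 and 10.9), and Col4a6 had no peak in any list. For comparison, the 357 genes of the X chromosome that were open in both libraries had median percentiles of 72.6 and 66.6. The remaining network genes were low or closed. Col8a1, a collagen of vessel walls, reached 1.16 in replicate 1 alone, and the longer list of replicate 2 held a peak of 0.920. The replicate 1 peak was centred at -606 bp from the start site and did not cover it. Col8a2 and Col10a1, the latter a marker of hypertrophic cartilage, had no promoter peak.

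**Figure D2:**
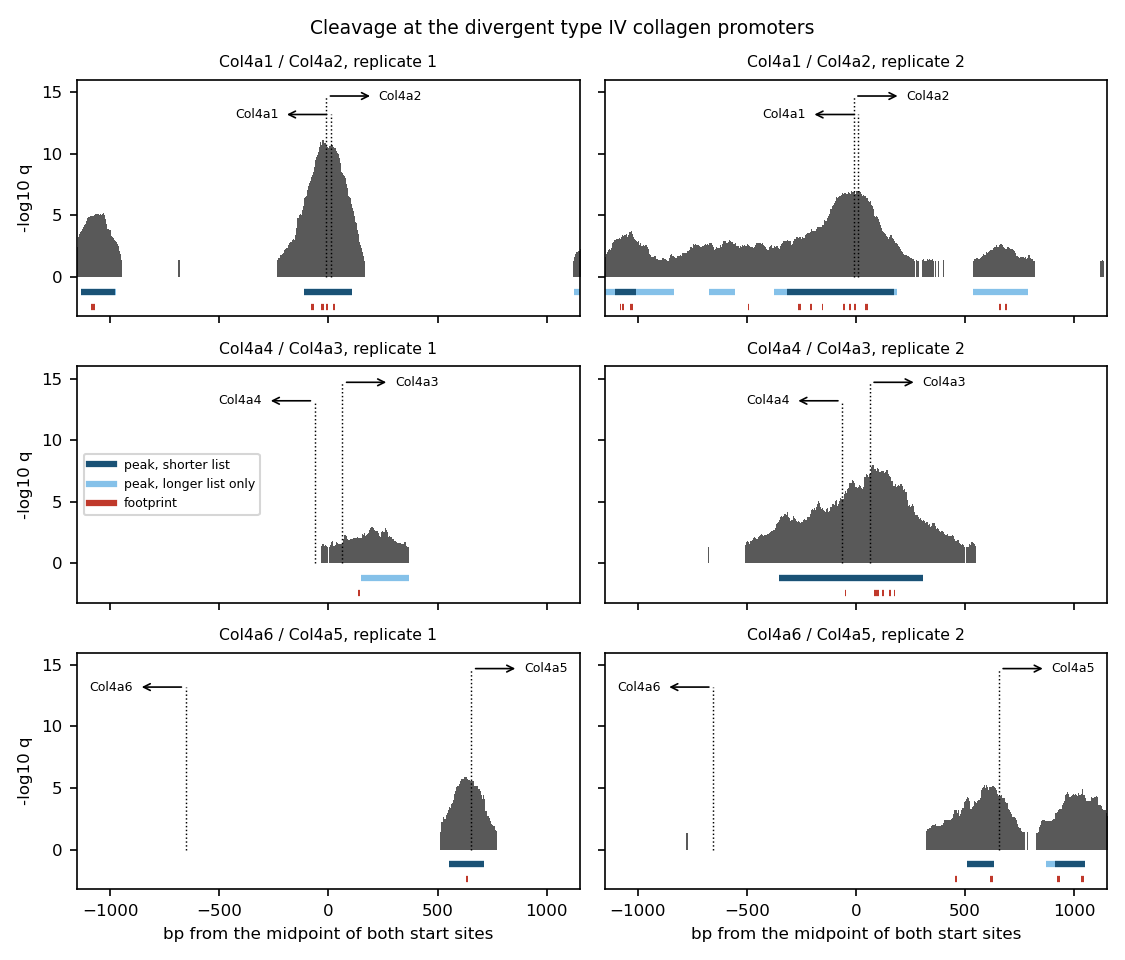
Cleavage significance (-log10 of the authors' q-value, drawn where a run was listed) against distance in bp from the midpoint of both start sites for the type IV pairs, with 1 row for each pair and 1 column for each library; bars under each track are peaks and footprints, and arrows show the direction of transcription. Col4a1 and Col4a2 share a central summit in both libraries, Col4a3 and Col4a4 have a shorter-list peak only in replicate 2, and the start of Col4a6 has no peak beside Col4a5.

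The highest collagen promoters belonged to the class of other collagens. Col16a1, a fibril-associated collagen, reached 11.0 in replicate 1 and 4.67 in replicate 2 (percentiles 96.0 and 89.4), with peaks at chr4:130047741-130047900 and chr4:130047741-130047940. Col6a2, a chain of type VI, reached 9.04 and 6.59 (percentiles 93.6 and 95.4) and was the highest collagen gene in replicate 2. The remaining chains of the main type VI trimer were lower, with 3.29 and 1.48 for Col6a3 and 1.65 and 0.782 for Col6a1. Although the 3 chains assemble into one protein, their promoter heights in replicate 1 thus ran from 1.65 to 9.04, in the order Col6a2, Col6a3, Col6a1, and the order was the same in replicate 2.

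Col6a5 (1.27 and 0.946) and Col6a6 (1.05 and 0.861), chains that can stand in for Col6a3, were low but open in both libraries, and Col6a4 was closed, which left 5 of 6 beaded-filament genes open. Of the fibril-associated collagens, 2 of 9 were open in both libraries: Col16a1, and Col12a1, a collagen on the surface of fibrils in tendon and muscle, at 3.17 and 2.50. Col22a1, known from the junction between muscle and tendon, was open in replicate 1 alone at 1.06. Col14a1 (0.729) and Col19a1 (0.545) were open in replicate 2 alone, and Col9a1, Col9a2, Col9a3 and Col20a1 were closed. These values were in the lower part of the shorter list, at percentiles from 15.2 for Col19a1 to 21.1 for Col22a1 and 22.4 for Col14a1. The longer list of the other library held a peak for each of these 3 genes. It reached 0.618 for Col22a1 in replicate 2, and 0.999 for Col14a1 and 0.826 for Col19a1 in replicate 1.

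Of the transmembrane collagens 3 of 4 were open: Col23a1 at 2.28 and 1.99, Col13a1, a component of the neuromuscular junction, at 1.17 and 0.749, and Col25a1, needed for motor innervation of muscle, at 1.04 and 0.756. These Col13a1 peaks were centred 574 and 465 bp downstream of the nearest start site. Lower Col13a1 peaks covered a start site, with 0.591 in the shorter list of replicate 2 (chr10:61979101-61979158). In replicate 1 one was in the longer list only, with 0.641 (chr10:61979041-61979146). Col17a1, of the skin hemidesmosome, was closed, as was Col7a1, the anchoring fibril collagen of skin. The multiplexins are basement membrane collagens whose ends can be released as small fragments such as endostatin. Col18a1 reached 3.80 and 1.69, and these peaks were at its inner start sites, 52602 bp from the first. Its first start site carried only 0.875 in replicate 1 and no shorter-list peak in replicate 2, so both animals showed the higher signal at the inner start. Col15a1 had promoter peaks in the longer lists only, 0.999 and 0.959. Of the rest, Col26a1 was open in replicate 2 alone at 0.887 and Col28a1 was closed.

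The 12 genes without a promoter peak in any list were Col2a1, Col4a6, Col6a4, Col7a1, Col8a2, Col9a1, Col9a2, Col9a3, Col10a1, Col17a1, Col20a1 and Col28a1. Of these, none had a run of bases with q at or below 0.05 within 500 bp of a start site in replicate 1, and 1, Col4a6, had one in replicate 2. Of all 7830 protein-coding genes with no peak in any list, 1.12% had such a run in replicate 1 and 2.21% in replicate 2. Markers of 2 cell types known for some of these collagens were open in both libraries for 1 of 4 keratinocyte and 1 of 4 osteoblast genes. These were Krt10 and Runx2, while Krt5, Krt14, Flg, Sp7, Bglap and Ibsp had no peak in either shorter list. The start sites of these keratinocyte and osteoblast genes all have a ratio of observed to expected CpG under 0.6. Of all genes with such a ratio, 20.8% were open in both libraries, a share near these counts.

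Where collagen promoters were open, they were modest in height. The median of the 23 was 3.05 in replicate 1 and 1.74 in replicate 2, percentiles 72.8 and 62.1. The 11849 protein-coding genes open in both libraries had medians of 5.73 and 3.95, percentiles 86.7 and 85.9. Their base composition also differed: collagen start sites had a median ratio of observed to expected CpG of 0.423 over 250 bp either side, against 0.613 for all genes. Promoters rich in CpG are known to be open in most tissues, and those poor in CpG tend to open where their gene is used.

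Split at a CpG ratio of 0.6, 15 of 31 collagen genes below it were open in both libraries (48.4%, against 20.8% of all such genes), and 8 of 13 at or above it (61.5%, against 86.3%). The CpG-poor open group held Col1a1, Col1a2, Col3a1, Col5a2, Col5a3 and all of the open type VI genes, among others. The CpG-rich open group held Col4a1, Col4a2, Col5a1, Col12a1, Col13a1, Col23a1, Col25a1 and Col27a1. Col6a2 (ratio 0.420) and Col1a1 (0.396) thus ranked among the highest collagen promoters with CpG ratios below the median of all genes, and Col3a1 was open at 0.182. For CpG-poor genes of all kinds that were open in both libraries, median percentiles were 73.9 and 72.0.

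**Figure D3:**
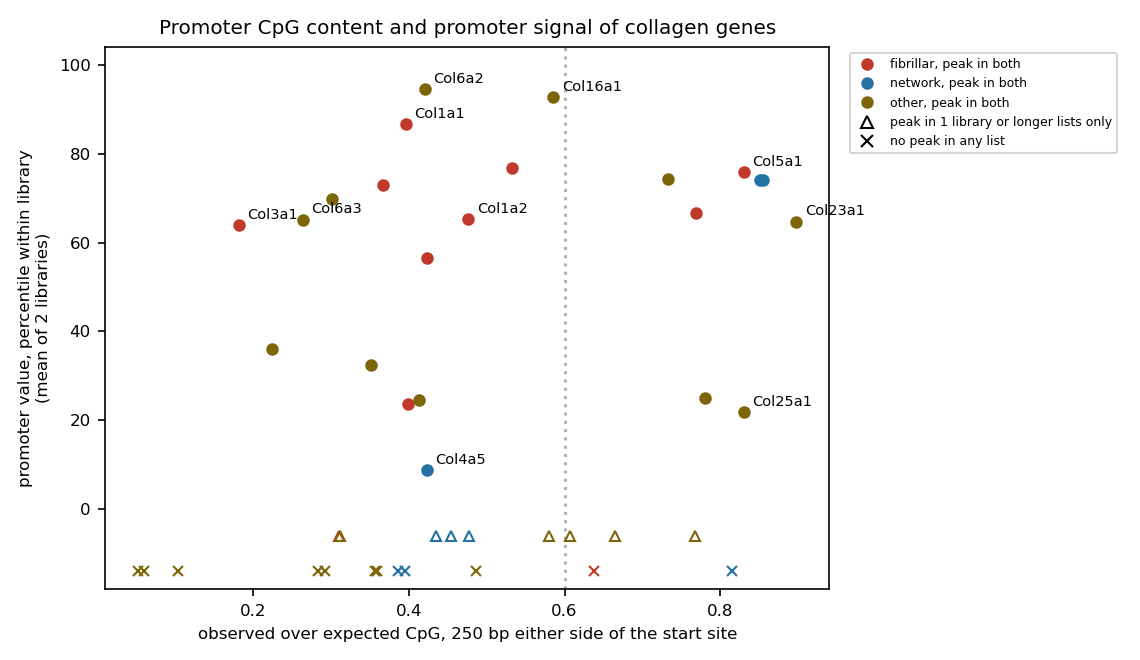
Ratio of observed to expected CpG within 250 bp of the start site (horizontal axis) against the within-library percentile of the promoter value (mean of both libraries) for the collagen genes open in both; triangles and crosses under the axis are genes with a peak in 1 library or the longer lists only and genes with no peak. The highest promoters, Col6a2, Col16a1 and Col1a1, lie left of the dotted line at 0.6, and 2 of the 12 crosses lie right of it.

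Sequence motifs of promoters were counted beside their share in all protein-coding genes. The shares are not matched for CpG, and no difference between them was tested. In all, 10 base patterns were searched on both strands in the 300 bases from 250 before to 50 after each start site. CCAAT was in 38.6% of the collagen windows and 38.6% of all windows, GGGCGG, a site of Sp factors, in 56.8% and 45.3%, and TATAAA in 13.6% and 12.5%. The 6 collagen windows with TATAAA were those of Col1a1, Col3a1, Col10a1, Col13a1, Col14a1 and Col17a1. CANNTG, the E-box of which CAGCTG is one form, was in 56.8% and 69.0%, CAGCTG in 13.6% and 15.7%, CATTCC, a TEAD site, in 15.9% and 13.0%, and CAGACA, a SMAD site, in 25.0% and 18.8%. TGANTCA, an AP-1 site, was in 1 window (2.27%, against 6.66%), that of Col6a1, the CArG box was in 1 (2.27%, against 1.48%), that of Col6a4, and the NFI full site was in 0 (against 0.0320%).

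Footprints shared by both libraries, that is, footprints that overlapped by at least 1 bp, were found within 500 bp of the start sites of 19 collagen genes, beside 52.1% of all genes. Of 73 footprints at collagen promoters in replicate 1, 40 (54.8%) were shared with replicate 2, against 69.7% of all promoter footprints of replicate 1. Col1a1 had 4 footprints in replicate 1 and each overlapped one of the 8 in replicate 2. Col1a2 had 4 and 7, of which 1 overlapped, and Col11a2 had none in either library.

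The libraries differed most at a few collagen genes. Replicate 2 had the lower value at each of the 23 promoters open in both, with a median ratio of replicate 2 to replicate 1 of 0.601. The scaling between libraries is not stated, and over all 11849 genes open in both the median ratio was 0.679, so each gene was read against that distribution. Of the 23, 13 lay below the median of all genes, 6 lay in its lowest 10% (at or below 0.480) and none in its highest 10% (at or above 1.08). The 6 were Col1a2, Col5a1, Col6a1, Col6a3, Col16a1 and Col18a1. The 2 Col6a1 peaks overlapped only in part. That of replicate 1 covered the start site, and that of replicate 2 was centred 258 bp downstream and did not. The lowest q-value within 500 bp of the Col6a1 start site was 2.13e-05 in replicate 1 and 1.59e-25 in replicate 2. Col1a2 was the most extreme with 0.314. Counting Col1a2 itself, 21 of the 11849 genes had a ratio as low. Among the 1698 genes whose replicate 1 value lay from 3.5 to 5, 2 did, again counting Col1a2. The Col1a2 peak was 220 bp wide in replicate 1 and 336 bp in replicate 2. The partner of Col1a2 in the type I trimer, Col1a1, had 0.757, above the median of all genes.

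Cell type markers were read against the same median ratio of 0.679. The 6 muscle fibre genes, all open in both libraries, had a median ratio of 0.516 (range 0.421 to 0.690), with values that summed to 24.7 in replicate 1 and 12.9 in replicate 2. The 2 fibro-adipogenic progenitor genes open in both had a median of 0.992, and the 2 tenocyte genes 0.978. The medians of the 3 endothelial genes open in both (0.661) and the 3 smooth muscle and pericyte genes (0.675) lay close to that of all genes. Other lists had 0.845 (2 chondrocyte genes), 1.38 (1 osteoblast gene), 0.804 (2 Schwann cell genes) and 0.643 (1 keratinocyte gene). No macrophage gene was open in both. Cdh5 of endothelium (2.07) and Rgs5 of pericytes (0.752) had a shorter-list peak in replicate 1 alone. Of the remaining stromal markers, Lum and Ly6a had no shorter-list peak in either library and Pi16 and Dpp4 had one in replicate 2 alone. Summed with such genes, values were 6.97 and 3.01 for endothelium and 9.06 and 5.29 for smooth muscle and pericytes. They were 4.13 and 5.96 for fibro-adipogenic progenitors and 4.29 and 4.33 for tenocytes. In these sums a gene added nothing for a library where it had no shorter-list peak. Longer-list peaks left out in this way were 1.14 for Cdh5 in replicate 2 and 0.752 for Dpp4 in replicate 1. Rgs5 in replicate 2 and Pi16 in replicate 1 had no longer-list peak either. The part of the cell type makeup in the collagen ratios was not tested.

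**Figure D4:**
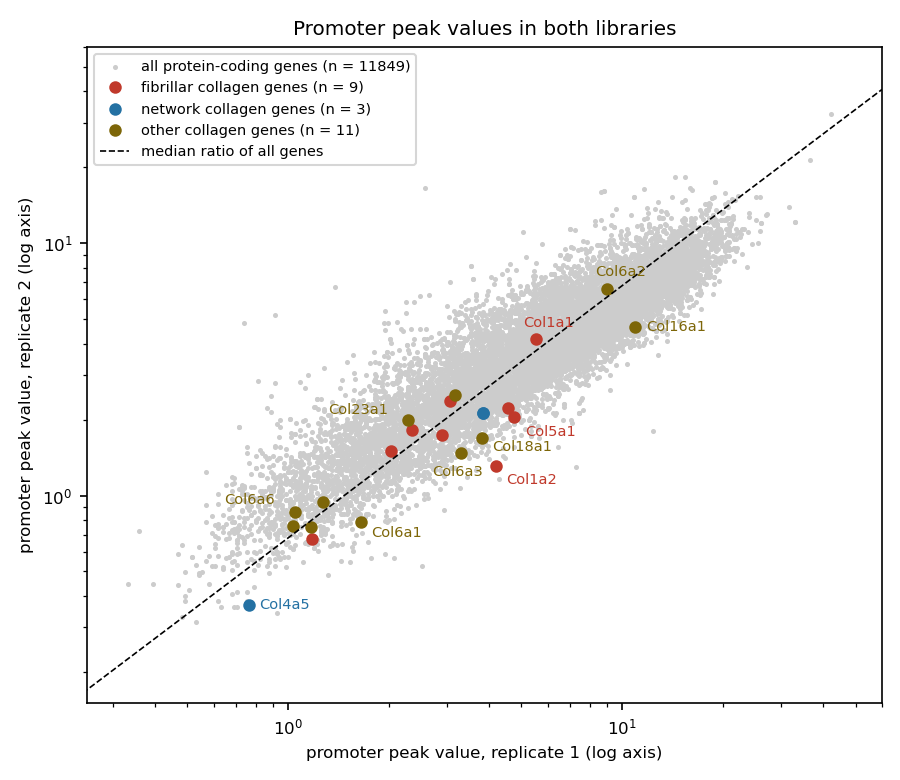
Promoter peak value in replicate 1 (horizontal, log axis) against replicate 2 (vertical, log axis) for all 11849 protein-coding genes open in both libraries (grey) and the 23 collagen genes among them, coloured by class; the dashed line is the median ratio of all genes. Col1a2 lies far under the line at 4.19 and 1.31, and Col1a1 lies above it at 5.51 and 4.17.

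Most collagen genes had open regions away from start sites. A distal region was a merged region with a peak of each shorter list, over 1 kb from every annotated start site, and it was counted in the gene body and 10 kb either side. Of the 44 genes, 28 had at least 1 (63.6%), beside 32.2% of all protein-coding genes. Collagen genes are long, with a median of 114388 bp against 17380 bp, so the share was also read within length classes: 21 of 29 collagen genes of 50 kb or more (72.4%, against 53.6% of all such genes) and 7 of 15 shorter ones (46.7%, against 25.8%). Together they held 76 distinct regions, or 1.23 for each 100 kb searched, against 0.799 over all protein-coding genes.

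Of the 76 regions, 60 lay in introns, 6 overlapped exons, 8 were upstream and 2 downstream of the gene, and none overlapped another protein-coding gene. A footprint shared by both libraries was found in 69 (90.8%), beside 87.1% of all 15864 distal regions. The median of the lower percentile of both libraries was 53.5, against 44.9 for all distal regions. These regions are placed with a gene by position only, and what they act on was not measured.

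Col15a1 had the most distal regions, 8, all in introns between 26.9 and 87.6 kb from its first start site. Regions were ranked within each gene by the lower of both percentiles, and the first by this rank is named here and below. For Col15a1 it was chr4:47234981-47235220 in intron 2, with 4.14 in replicate 1 and 3.11 in replicate 2. Over all 8, values ran from 1.78 to 4.36 in replicate 1 and from 1.31 to 3.11 in replicate 2. A gene with no promoter peak in the shorter lists thus carried the longest series of replicated open regions among the collagens. Among fibrillar genes, Col27a1 had 7, with the first by rank at chr4:63291181-63291380 in intron 24 (4.57 and 3.25). Col5a3 had 5, the first lying downstream of the gene at chr9:20760881-20761220 (5.55 and 1.81), and Col5a1 had 4, the first at chr2:27953901-27954140 in intron 9 (2.54 and 2.50), although 2 others were higher in replicate 1 (2.80 and 2.77).

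Among network genes, Col4a2 had 5 distal regions, with the first by rank at chr8:11382501-11382818 in intron 4 (2.40 and 1.60), and Col4a1 had 3, with the first at chr8:11253581-11253800 in intron 2 (2.56 and 3.003). The shared type IV start thus lay between 2 genes that each carried intronic regions. Col8a2 had 2 and no promoter peak. Among the others, Col6a6 had 5, with the first at chr9:105693881-105694080 in intron 36 (2.45 and 3.06). Col6a1 had 4, all upstream of the gene at -2.4, -6.9, -7.3 and -9 kb from its start site, and no other collagen gene had more than 2 upstream regions. Its nearest, chr10:76728481-76728640, reached 3.91 and 3.36, while the promoter itself had 1.65 and 0.782.

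**Figure D5:**
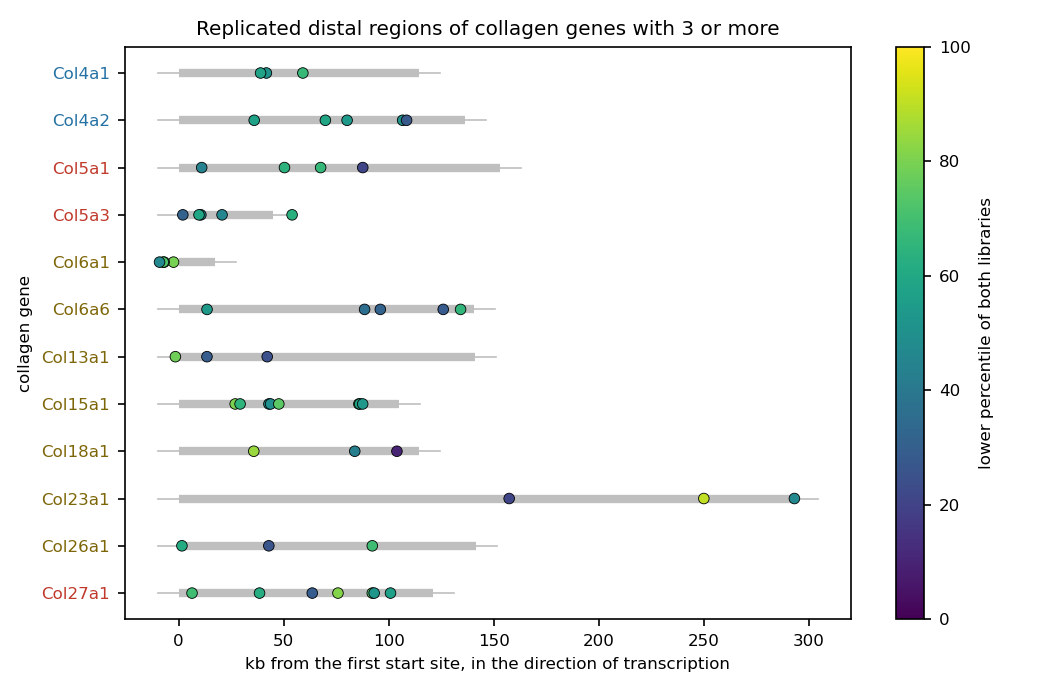
Position of replicated distal regions (points) in kb from the first start site, in the direction of transcription, for the collagen genes with 3 or more; thick bars are gene bodies, thin lines the 10 kb flanks, and colour is the lower within-library percentile of both libraries. Col15a1 has 8 intronic regions, Col27a1 has 7, and the 4 regions of Col6a1 all lie upstream.

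Some collagen genes had a distal region higher than the promoter. This comparison and the genes named in it were chosen after the values were seen. Its shares of all genes are over genes of every length and are not matched to the long collagen genes. Of the 23 collagen genes open in both libraries, 17 had a distal region, beside 40.5% of all genes open in both. Of these 17, 7 had a distal region that exceeded the promoter peak in both libraries, beside 17.2% of the 4802 protein-coding genes with both. They were Col6a1, Col6a6, Col13a1, Col18a1, Col23a1, Col25a1 and Col27a1. For Col13a1 this was an upstream region at -1.5 kb, chr10:61980521-61980720, with 3.70 and 2.98 against 1.17 and 0.749 at the promoter. Neither of those promoter peaks covered a start site, though a lower Col13a1 peak of replicate 2 did (0.591).

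Of all genes not open at the promoter in both libraries, 22.3% had a distal region, a share not matched for gene length. Of the 21 such collagen genes, 11 had a distal region. They included Col2a1, with 1 region in intron 16 at chr15:97992805-97993192 (3.16 and 1.43), Col14a1, with an upstream region at -1.3 kb, chr15:55306401-55306580 (2.66 and 2.40), and Col7a1, with 1 region downstream of the gene (2.21 and 1.59). Col4a6, Col6a4, Col9a1, Col9a2, Col9a3, Col10a1, Col19a1, Col20a1, Col24a1 and Col28a1 had neither. Col1a2, Col3a1, Col4a5, Col6a2, Col11a1 and Col11a2 had an open promoter and no distal region.

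The type I genes differed in their surroundings. Col1a1 had 2 distal regions, both upstream: one at -7.2 kb, chr11:94928841-94929140, with 8.51 and 3.38, and one at -2.3 kb, chr11:94933741-94934028, with 2.10 and 1.35. The farther one exceeded the promoter in replicate 1 and not in replicate 2. Its ratio of replicate 2 to replicate 1 was 0.398, at the 4.20 percentile of the ratios of all distal regions (median 0.746). Col1a2 had none within 10 kb. Within 50 kb it had 3 upstream regions, at -47.6 kb, -17 kb and -15.4 kb. That at -17 kb, chr6:4488461-4488600, had 3.70 in replicate 1 and 0.940 in replicate 2, a ratio of 0.254 that stood at the 0.189 percentile. The region at -15.4 kb, chr6:4489999-4490132, had 1.39 and 1.07, a ratio of 0.769, and that at -47.6 kb had 3.29 and 1.48, a ratio of 0.449 at the 8.41 percentile. Between 10 and 50 kb outside the gene, Col1a1 had regions at -20.3, 42.9, 52.8 and 53.5 kb from its start site. Their ratios were 0.759, 0.686, 0.723 and 0.615, at percentiles 51.9, 41.3, 46.7 and 30.4. The highest of them, chr11:94979041-94979220, had 9.70 and 6.66. Ratios in the lowest 10% were thus found at 2 of the 3 Col1a2 regions and at the Col1a1 region at -7.2 kb. None of the Col1a1 regions beyond 10 kb had one, and the Col1a1 promoter was above the median of all genes. Over the 76 collagen distal regions the median ratio was 0.696, with 9 in the lowest 10% and 9 in the highest 10% of all distal regions.

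The strongest distal regions are printed because they share letters that the promoters were not searched for. They are those with the highest lower percentile: intron 5 of Col23a1 (7.26 and 6.30), intron 2 of Col18a1 (5.08 and 6.41) and intron 3 of Col8a2 (4.77 and 4.30). The sequences are the peaks of replicate 1 from GRCm38.p6 (mm10) on the strand of the gene, with capitals for bases in footprints of both libraries.
Col23a1 intron 5, chr11:51539721-51539940: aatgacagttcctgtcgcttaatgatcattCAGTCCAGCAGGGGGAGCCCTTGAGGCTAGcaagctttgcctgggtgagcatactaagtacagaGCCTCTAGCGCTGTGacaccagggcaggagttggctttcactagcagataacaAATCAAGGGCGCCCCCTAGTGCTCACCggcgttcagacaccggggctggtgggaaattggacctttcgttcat
Col18a1 intron 2, chr10:77130661-77130820: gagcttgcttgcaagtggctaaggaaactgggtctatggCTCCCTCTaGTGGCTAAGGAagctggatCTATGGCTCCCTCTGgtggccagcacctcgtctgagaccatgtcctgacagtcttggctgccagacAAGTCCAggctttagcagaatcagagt
Col8a2 intron 3, chr4:126309981-126310180: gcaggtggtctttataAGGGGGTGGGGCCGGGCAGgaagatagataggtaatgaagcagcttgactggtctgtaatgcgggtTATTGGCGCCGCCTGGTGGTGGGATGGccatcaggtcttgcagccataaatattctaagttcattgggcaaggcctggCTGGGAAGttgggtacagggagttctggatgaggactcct

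Each of these 3 regions holds the core letters CCA, any 2 bases, AG, any 2 bases and GG, part of the site of CTCF, a protein that binds insulators and loop anchors, on one strand or the other, and in each the letters reached into a footprint of both libraries. The Col18a1 region holds them at 2 places, chr10:77130735-77130745 and chr10:77130769-77130779. This pattern was added after the strongest regions had been seen, so its presence in them is a description. Over all collagen distal regions 16 of 76 held it (21.1%), against 28.4% of all distal regions and 31.8% of the 3172 strongest of them, so the share was no higher around collagen genes. A match of letters does not show which protein was bound.

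Most genes for proteins that build and handle collagen were open. Of 56 such genes 43 (76.8%) were open in both libraries, beside the same 54.2% of all protein-coding genes. Of those with a CpG ratio of 0.6 or more, 27 of 31 were open (87.1%, against 86.3% of all such genes), and of those below it 16 of 25 (64.0%, against 20.8%). The folding and export genes were open in 8 of 8 cases, among them Serpinh1, the collagen chaperone HSP47 (6.71 and 3.27), and Sec23a, of the vesicle coat (13.8 and 9.99). The hydroxylation and glycosylation enzymes all had a CpG ratio of 0.6 or more and were open in 13 of 15 (86.7%), led by P4hb (20.7 and 10.8) and P4ha1 (16.9 and 8.21), subunits of prolyl 4-hydroxylase, while P4ha3 was closed and P3h3 was open in replicate 2 alone.

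Propeptide removal was represented by 7 of 8 open genes, including Pcolce (4.50 and 2.19) and Bmp1 (2.38 and 2.13), with Adamts14 closed. Of the crosslinking enzymes 4 of 5 were open, with Loxl4 (3.53 and 3.06) highest by rank and Loxl2 closed. Receptors were open in 7 of 9, with Itgb1 (8.70 and 4.32) and Ddr1 (4.83 and 3.50) highest, and the blood-cell receptors Gp6 and Lair1 closed. The collagen-degrading enzymes Mmp2 (2.77 and 1.75) and Mmp14 (2.21 and 1.30) were open and Mmp8, Mmp9 and Mmp13 closed, which made 2 of 5. The fibril-binding proteoglycans had 2 of 6 open, Prelp (1.96 and 1.66) and Dcn (1.08 and 1.01), with Bgn, Lum, Fmod and Kera closed. All 6 have a CpG ratio under 0.6, and 33.3% of them were open, beside 20.8% of all such genes. A closed gene of these lists is one without a shorter-list peak. The longer list of replicate 2 held peaks for Adamts14 (0.933), Bgn (0.697) and Lum (0.480), and that of replicate 1 for Fmod (0.888). The highest values of these lists were those of P4hb, P4ha1 and Sec23a, all with a CpG ratio of 0.6 or more. The proteoglycans had low values or no shorter-list peak.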

How the data were processed

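DNase-seq peaks, footprints and q-values of 2 libraries were used as deposited. The authors called peaks and footprints in each library on mm10, per the deposited file listings. Which aligner and callers they used, and how CAST/EiJ reads were treated, is not given in the sources used here. The peak value is the authors' signal, a height of cleavage density. The deposited footprint score is 0.01 on each line and was not used. The deposited q-value (FDR) lists hold runs below 0.05.

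Start sites came from protein-coding transcripts of the GENCODE release 21 basic set (41408 sites). Intervals were computed in Python 3.11.15 with bedtools 2.31.1, pysam 0.24.0 and numpy 2.4.6, and the code was tested on simulated peaks. Per the labels, each library came from its own animal. Motif windows and sequences were read from GRCm38.p6. No p-value was computed, since 1 group of 2 animals allows no test. Collagen members, classes and lists were chosen with earlier results of these data known. Each member was accounted for. Distal regions were named for the 3 genes with most regions in each class, at the region highest by rank. Sequences came from the divergent pairs, the 3 highest other promoters, type I and the 3 highest distal regions. Of the sites this gave, only part is printed, and the rest are not reported here. Pathway examples were those highest by rank and those without a peak, with Serpinh1 chosen after its values were seen.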

Additional observations from a re-analysis of the deposited data

How the results depend on the processing

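Over 91 alternatives to 20 results, 75 stayed within 1.5 times or 1 SD of the reported value. With peaks limited to those at or above the median of each list, 15 collagen genes were open in both libraries (6 of the other collagens) and 45 distal regions remained. A rule that the peak must cover a start site, chosen after seeing the data, left 14 (6 of the other collagens). The longer lists gave 6 open network genes, 2 open head-to-head pairs and 145 distal regions, and a 50 kb flank gave 129 regions. With either library left out, the counts ran from 4 to 5 for network genes, 136 to 146 for distal regions, 27 to 31 for genes with a promoter footprint and 1 to 2 for pairs. The mean over both libraries of the median percentile, 67.5, was 55.5 without replicate 1 and 71.2 without replicate 2. The CArG box was in 0% of the promoter peaks in place of the fixed windows. These peaks cover only the 23 open genes, and the 1 window with the box was that of Col6a4, which has no peak. The 0% thus follows from the change in the set of genes. No paired analysis was possible because there is only 1 group. The depth is unknown, so a closed promoter means no peak at the authors' threshold.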
